A study of Mus musculus with 2 samples.

Results

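Antisense noncoding genes are transcribed from the strand opposite another gene and make RNA that is not annotated as coding for protein. In the hippocampal tissue studied here, 170 of the 2948 annotated genes whose transcripts are all of the biotype antisense were expressed in both libraries. They were chosen by their level: at least 1 TPM (a transcript level corrected for length and scaled to a fixed total per library) in each of the 2 gene tables. At that threshold 173 antisense genes passed, and 3 of them were left out by name (Airn, Kcnq1ot1 and 9630013A20Rik). The tables hold 55536 genes, of which 14865 reached the same threshold. Since the level chose these genes, their levels and their ratios to other genes are given as a description, with no test.

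The samples form a single group. Male B6CASTF1/J mice, which are hybrids of the strains C57BL/6J and CAST/EiJ, gave total RNA at 14 days of age. The labels of both libraries give the source as "layer of hippocampus tissue" and name no treatment. The 2 libraries are numbered as biological replicates 1 and 2, and each label lists 3 males without stating whether their RNA was pooled. Both were prepared from 300 ng of RNA with spike-in RNAs meant for stranded, ribosome-reduced libraries, and the gene tables hold 29144892 (replicate 1) and 31755578 (replicate 2) gene counts. Markers of excitatory hippocampal neurons (Slc17a7, Neurod6, Camk2a and Nrgn) summed to 2687 TPM in replicate 1 and 2899 TPM in replicate 2, so markers of the labelled tissue were present.

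Antisense genes occur in a few arrangements. A divergent gene starts beside the start of its partner and runs the other way, often from a shared stretch of CpG-rich promoter DNA. A convergent gene starts beyond the far end of its partner and runs towards it, so that the ends of both RNAs can be complementary. Others lie wholly inside their partner or enclose it. Some antisense RNAs are known to act on the locus where they are made, as at imprinted genes and at developmental transcription factor genes, while for many no function is known. Such an RNA can be told from the sense RNA only when the sequencing keeps the strand.

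A partner on the opposite strand, called the sense gene below, was found for 168 of the 170 genes from the GENCODE M21 annotation (build mm10). For 142 it was the gene with the largest overlap, with protein-coding genes preferred wherever one overlapped. For 19 it was the gene named by the symbol (as Rab10os names Rab10), and for 7 a gene whose start lay within 1000 bases. The partners were 167 different genes. In 166 of the 168 pairs the partner was protein-coding, a number that the preference for coding genes favours. A partner chosen so need not be the gene opposite the exons. Of the exon bases of Gm15941, 0% lay over exons of its partner and 48.9% over exons of any opposite-strand gene. For 4732471J01Rik these were 0% and 21.2%. Gm14286 and Gm43079 had none. The genes were spread over the autosomes, and none lay on the X or the Y chromosome. The X chromosome held 45 antisense genes (1.53% of the class), 28 of them with no read in either library. The highest of these by mean TPM was Gm45022, opposite Nbdy, with 1.11 TPM in replicate 1 and 0.21 TPM in replicate 2.

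For 44 of the expressed antisense genes, the RefSeq promoter table (build GRCm38.p6) holds a window of 300 bases, from 250 before the start to 50 after it, whose start lies within 100 bases of the annotated one. In 4 of these windows the start of the sense gene lies inside the same stretch, so that a single short region holds the starts of both genes. These 4 are shown because they display most directly what a divergent pair is. Their partners are Cox10 (an enzyme of haem A synthesis), Zdhhc4 (a palmitoyltransferase), B9d1 (a protein of the ciliary transition zone) and Tpt1 (the abundant translationally controlled tumour protein). Capitals mark matches to 4 motifs searched on both strands. The GC box core is spelled GGGCGG. The CCAAT box is spelled as its name. The TATA box was searched as TATAAA. The factor NRF1 binds a longer motif, of which the core piece TGCGCA was searched, and it reads alike on both strands. The sequences read 5′ to 3′ on the strand of the antisense gene. They lie at chr11:64079234-64079533 (plus strand), chr5:143329058-143329357 (plus strand), chr11:61505037-61505336 (minus strand) and chr14:75844915-75845214 (minus strand).
2810001G20Rik: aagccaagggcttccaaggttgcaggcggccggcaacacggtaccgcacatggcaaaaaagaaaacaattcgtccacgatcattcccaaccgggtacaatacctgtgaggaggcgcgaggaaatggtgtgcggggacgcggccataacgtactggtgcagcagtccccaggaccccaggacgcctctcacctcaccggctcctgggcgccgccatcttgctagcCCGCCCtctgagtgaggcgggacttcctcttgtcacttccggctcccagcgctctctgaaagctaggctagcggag
0610040B10Rik: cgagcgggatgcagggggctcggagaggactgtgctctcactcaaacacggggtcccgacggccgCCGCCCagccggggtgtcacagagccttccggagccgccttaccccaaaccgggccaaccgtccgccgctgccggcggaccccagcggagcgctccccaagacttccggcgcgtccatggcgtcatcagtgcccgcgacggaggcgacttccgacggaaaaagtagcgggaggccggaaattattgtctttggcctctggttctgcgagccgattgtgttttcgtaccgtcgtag
B9d1os: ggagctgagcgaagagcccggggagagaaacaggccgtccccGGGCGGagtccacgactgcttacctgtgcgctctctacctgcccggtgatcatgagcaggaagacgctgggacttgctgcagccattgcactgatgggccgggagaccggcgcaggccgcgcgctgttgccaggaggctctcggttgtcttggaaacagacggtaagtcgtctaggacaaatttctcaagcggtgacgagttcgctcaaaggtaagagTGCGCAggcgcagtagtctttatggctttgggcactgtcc
Gm4285: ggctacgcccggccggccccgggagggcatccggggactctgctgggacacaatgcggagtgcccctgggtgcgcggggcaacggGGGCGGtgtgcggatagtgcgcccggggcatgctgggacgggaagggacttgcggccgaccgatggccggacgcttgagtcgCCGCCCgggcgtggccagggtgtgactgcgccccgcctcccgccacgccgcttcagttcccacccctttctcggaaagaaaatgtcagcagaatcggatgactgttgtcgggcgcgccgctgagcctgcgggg

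Counting from the first base printed, the sense gene starts at position 235 in the window of 2810001G20Rik (Cox10), 199 in that of 0610040B10Rik (Zdhhc4), 193 in that of B9d1os (B9d1) and 122 in that of Gm4285 (Tpt1). All 4 windows hold a GC box core, and none holds TATAAA. They contain 22, 36, 23 and 35 CpG pairs. With the shared region the levels of the 2 genes could lie close together or far apart. 2810001G20Rik was measured at 6.62 TPM in replicate 1 and 5.83 TPM in replicate 2, and Cox10 at 10.83 and 12.29 TPM. Gm4285 was measured at 1.36 and 1.62 TPM, and Tpt1 at 491 and 506 TPM. The antisense level was thus 1.84-fold under the sense level in the first pair and 314-fold under it in the last.

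A further pair of windows is shown for contrast, one of a gene whose partner was silent and one of a gene beside a developmental regulator. 4933431E20Rik starts far from its partner Eps8l3, and its window lies at chr3:107896164-107896463 (minus strand). A830082K12Rik starts inside Nr2f1, which encodes the nuclear receptor COUP-TFI, a patterning factor of cortex and hippocampus. Its window lies at chr13:78197767-78198066 (plus strand).
4933431E20Rik: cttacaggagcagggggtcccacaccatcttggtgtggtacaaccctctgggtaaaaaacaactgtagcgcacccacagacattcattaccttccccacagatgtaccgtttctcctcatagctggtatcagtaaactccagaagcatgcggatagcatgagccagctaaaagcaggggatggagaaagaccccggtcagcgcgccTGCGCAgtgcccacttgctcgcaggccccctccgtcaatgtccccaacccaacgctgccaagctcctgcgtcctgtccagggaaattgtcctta
A830082K12Rik: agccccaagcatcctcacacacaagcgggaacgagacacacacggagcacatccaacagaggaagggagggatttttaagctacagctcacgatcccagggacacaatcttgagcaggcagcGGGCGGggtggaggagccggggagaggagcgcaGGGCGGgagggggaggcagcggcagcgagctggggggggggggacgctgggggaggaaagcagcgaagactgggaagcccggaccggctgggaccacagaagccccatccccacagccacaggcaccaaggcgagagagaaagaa

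The window of 4933431E20Rik holds 11 CpG pairs and 1 match to TGCGCA, and that of A830082K12Rik holds 16 CpG pairs and 2 GC box cores. Over the 44 windows the median was 21 CpG pairs, against 7 over all 32851 windows of the table, which were not limited to expressed genes. The median was 22.5 CpG pairs for the 22 divergent genes and 20 for the 22 in other arrangements. At least 15 CpG pairs were present in 68.2% of the 44 windows and in 34.6% of all windows. The GC box core occurred in 68.2% against 35.7%, CCAAT in 47.7% against 37.4%, TATAAA in 9.09% against 13.6%, and TGCGCA in 15.9% against 7.76%. A match describes letters only, and the 44 are those with a RefSeq entry near the same start, not a sample of all 170.

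The expressed antisense genes were low next to coding genes. Their median level was 2.385 TPM (mean of the 2 libraries), with quartiles of 1.62 and 4.02 TPM. The 12924 protein-coding genes past the same threshold had a median of 15.2 TPM, and the 267 intergenic noncoding (lincRNA) genes one of 3.065 TPM. Of the 170, 103 reached 2 TPM, 32 reached 5 TPM and 13 reached 10 TPM. Together they received 25832 reads, or 0.0886% of gene counts, in replicate 1 (exact Clopper-Pearson 95% interval 0.0876 to 0.0897%), and 27213 reads, or 0.0857% (0.0847 to 0.0867%), in replicate 2. The 3 with most reads held 41.3% of these in replicate 1 and 42.3% in replicate 2. The median gene had a mean count of 54.5, and 4 genes had under 10, so that counting error alone is wide for the lower members. Intervals cover counting error only.

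**Figure D1:**
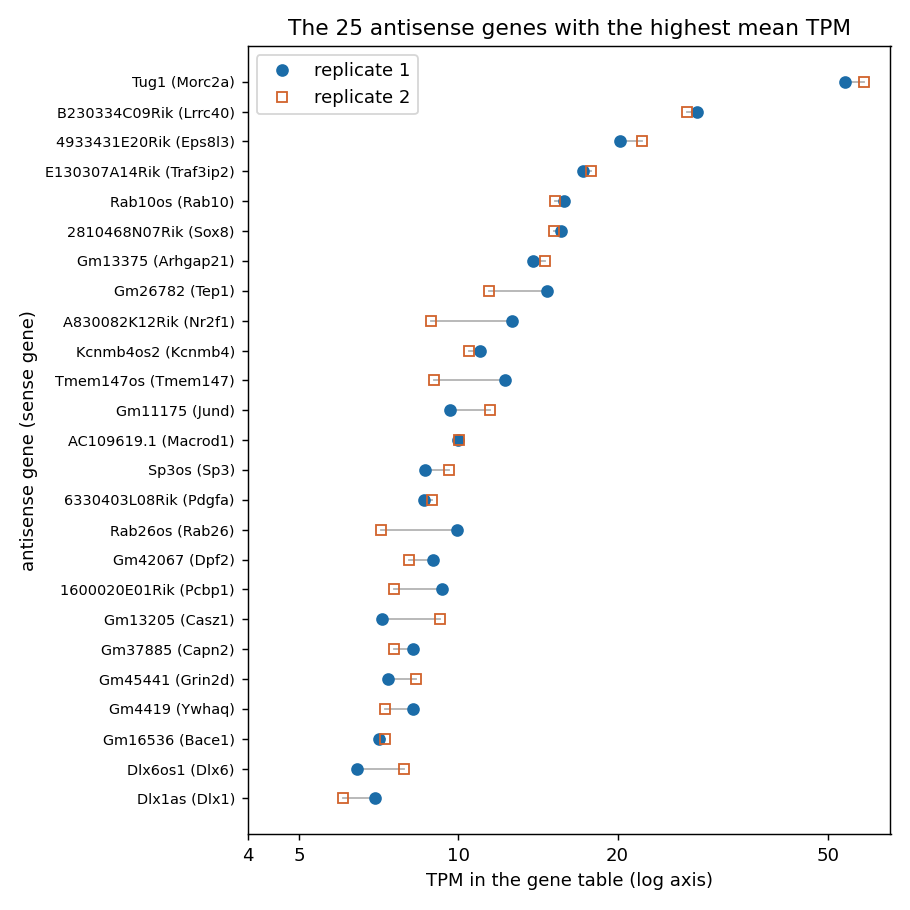
TPM of the 25 antisense genes with the highest mean, on a log axis, in replicate 1 (filled circles) and replicate 2 (open squares), with the sense gene in brackets. Tug1 stands at 53.8 and 58.5 TPM, above B230334C09Rik at 28.2 and 27.1 TPM, and most pairs of points lie close together.

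Tug1 was the highest of the 170. It is a conserved long noncoding RNA, present in many tissues and named for its rise with taurine in the retina, and it lies at chr11:3639785-3649673 (minus strand). It was measured at 53.8 TPM (4225 reads) in replicate 1 and 58.5 TPM (4833 reads) in replicate 2. Its start lies 482 bases inside Morc2a, which encodes an ATPase of chromatin silencing and was measured at 18.45 and 16.57 TPM. The antisense gene was the higher of the 2 by 3.20-fold, a log2 ratio of 1.68 ± 0.19 (SD, n = 2). A short RNA entry annotated on the same strand within Tug1, Gm27517, had a mean of 17.0 TPM, and the assignment of reads to Tug1 had a posterior standard deviation of 0.307% of the count at most.

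B230334C09Rik came second, at 28.2 TPM (5033 reads) in replicate 1 and 27.1 TPM (5139 reads) in replicate 2. It is a single exon of 8927 bases that runs towards Lrrc40, a leucine-rich repeat gene measured at 12.21 and 13.28 TPM. The antisense RNA was 2.16-fold above it. 4933431E20Rik came next, at 20.2 and 22.2 TPM (1398 and 1550 reads). Its partner Eps8l3, of the family of actin-regulating EPS8 proteins, was listed at 0 counts in both libraries, so no fold is given. E130307A14Rik followed at 17.18 and 17.79 TPM, opposite Traf3ip2 at 1.5 and 1.75 TPM. Traf3ip2 encodes an adaptor of interleukin-17 receptors, and the antisense gene exceeded it 10.2-fold, with a log2 ratio of 3.35 ± 0.11 (SD, n = 2).

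This order holds for the gene tables only. In the kallisto-layout tables Tug1 also led, with a mean of 95.5 TPM, but Gm26782 (44.0 TPM) came before B230334C09Rik (41.0 TPM), and E130307A14Rik (37.6 TPM), Rab10os (31.4 TPM) and A830082K12Rik (29.6 TPM) before 4933431E20Rik (28.4 TPM).

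Below these the order in the gene tables ran through genes opposite signalling and regulatory genes. Rab10os was measured at 15.87 and 15.22 TPM, opposite the membrane-traffic GTPase Rab10 at 84.5 and 87.9 TPM. 2810468N07Rik, starting 328 bases inside the SoxE transcription factor gene Sox8, was measured at 15.64 and 15.16 TPM, with Sox8 at 34.0 and 34.9 TPM. The ranges of Rab10os and 2810468N07Rik overlapped, so their order does not exceed their spread. Gm13375 had 13.85 and 14.61 TPM, and starts 173 bases upstream of Arhgap21, which stood at 150.6 and 139.2 TPM. Gm26782 had 14.73 and 11.41 TPM, while Tep1, a telomerase-associated protein gene beside it, had 1.15 and 1.27 TPM. Gm26782 was higher in the kallisto-layout tables, at 51.8 and 36.1 TPM. A830082K12Rik had 12.65 and 8.88 TPM (35.7 and 23.5 in the kallisto-layout tables), with Nr2f1 at 46.05 and 49.68 TPM. Replicate ranges overlapped between Gm13375 and Gm26782, and between Gm26782 and A830082K12Rik.

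The rest of the first 15 lay between 8 and 13 TPM in each library. Kcnmb4os2 was measured at 11.01 and 10.49 TPM, and its partner Kcnmb4, the neuronal β4 subunit of the BK potassium channel, at 31.19 and 35.75 TPM. Tmem147os stood at 12.25 and 8.99 TPM, 39 bases upstream of Tmem147, an endoplasmic reticulum membrane protein gene at 53.08 and 59.25 TPM. A separate entry of the same symbol and strand, annotated as a processed transcript, had a mean of 5.775 TPM and is not counted in these levels. Gm11175 lies wholly over exons of Jund, a member of the AP-1 family, and was measured at 9.66 and 11.49 TPM, with Jund at 75.04 and 88.44 TPM. AC109619.1, inside the ADP-ribosyl hydrolase gene Macrod1, stood at 9.98 and 10.03 TPM. Macrod1 was lower, at 4.30 and 3.96 TPM. Sp3os, opposite the zinc finger factor gene Sp3, had 8.67 and 9.61 TPM. 6330403L08Rik, beside the growth factor gene Pdgfa, had 8.62 and 8.91 TPM. Sp3 and Pdgfa themselves had 21.41 and 22.66 TPM, and 21.07 and 21.15 TPM. The antisense gene was under its partner in both libraries for all of these except AC109619.1.

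Across the 168 pairs the antisense gene was usually the lower. The log2 ratio of antisense to sense TPM, with 0.1 added to both, had a median of -2.69, which is 6.46-fold under, with quartiles of -3.86 and -0.82. In both libraries 130 antisense genes were below their partner and 32 above, and 6 changed sides between the libraries. The antisense gene was more than 10-fold below in 64 pairs. Of the 32 partners of genes above, 19 had under 1 TPM in both libraries and 11 passed 1 TPM in both. At most 3 reads in the libraries together were listed for 10 of the 32. A partner under 1 TPM in both libraries lies below its antisense gene by the threshold alone. As a description of how the levels run together over the 168 pairs, Pearson's r was -0.03 and Spearman's rho 0.01 on the log2 scale, with all points from the same libraries and the antisense levels bounded below by the threshold.

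**Figure D2:**
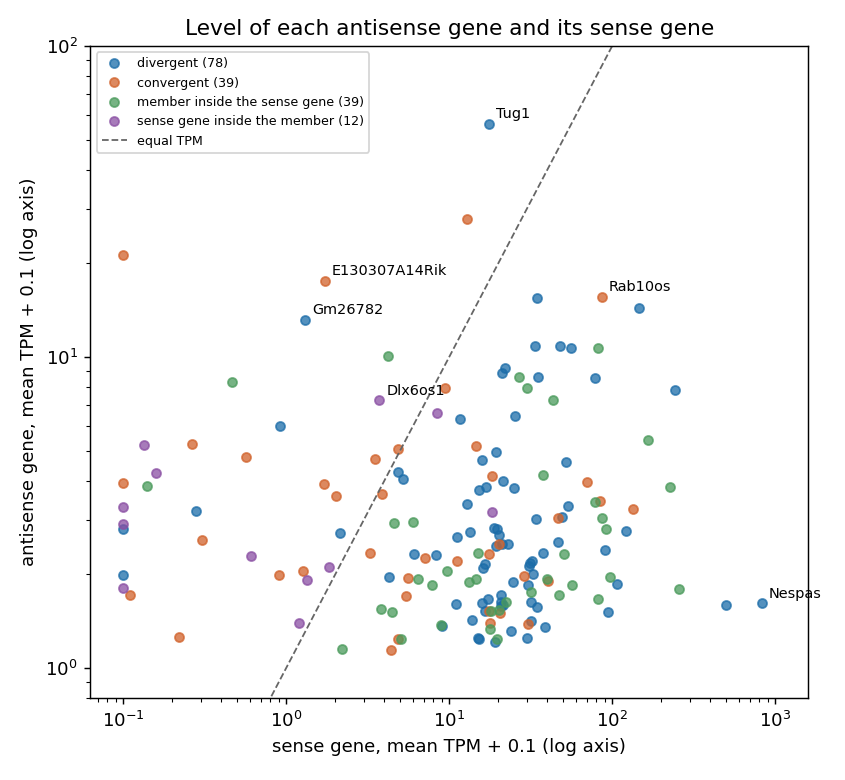
Mean TPM of each antisense gene against its sense gene, both with 0.1 added and on log axes, coloured by arrangement. The broken line marks equal levels, and most points lie to its right, where the sense gene is higher, while a group at the left edge has partners listed at or near 0.

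Among the 11 antisense genes above a partner that itself passed 1 TPM in both libraries were Tug1, B230334C09Rik, E130307A14Rik, Gm26782 and AC109619.1, given above. Dlx6os1 was another. This RNA, also known as Evf2, comes from the Dlx5 and Dlx6 locus of forebrain interneuron development and encloses Dlx6. It was measured at 6.44 and 7.89 TPM (428 and 489 reads), with Dlx6 at 3.50 and 3.72 TPM, a log2 ratio of 0.96 ± 0.14 (SD, n = 2). The neighbouring 5 were 6330418K02Rik (Gal3st4), Gm15545 (Bcl2l12), Gm4876 (Tes), Gm44210 (Efcc1) and E430024P14Rik (Tagap), with log2 ratios from 0.22 to 1.20. These 5 fall outside the naming rule and were named after their values were seen.

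The 10 highest ratios rested on partners with almost no reads. In 6 of these pairs the sense gene was listed at 0 in both libraries. Beside 4933431E20Rik they included Gm17116 (4.12 and 3.56 TPM, opposite the serine protease gene Prss52) and Gm15879 (2.37 and 1.42 TPM, opposite the nuclease gene Dnase1). Gm16008 (3.05 and 3.36 TPM) lies opposite Tnfrsf18, the gene of GITR, a receptor found on T cells. Gm11767 (2.52 and 3.07 TPM) and Gm15941 (3.18 and 2.23 TPM) were the rest. In the other 4 the partner had a few reads. Gm26982 stood at 4.85 and 5.48 TPM, with 4 reads and 0 reads for the ghrelin gene Ghrl. Gm49685 stood at 5.77 and 4.47 TPM, with 1 read in each library for Acot10. 4732471J01Rik had 4.39 and 3.87 TPM, opposite Ceacam2, and Gm15690 had 3.87 and 3.63 TPM, opposite the serine dehydratase gene Sds. Exons of Gm49685 and Gm15941 also lie within the spans, introns included, of expressed genes on their own strand. Those genes are Cdh12 at 11.7 TPM and Ncald at 145.9 TPM. The part of reads from Cdh12 and Ncald in the levels of Gm49685 and Gm15941 was not tested.

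At the other end stood antisense genes of some of the most active loci. Nespas, the antisense RNA of the imprinted Gnas locus, was measured at 1.60 and 1.43 TPM (52 and 54 reads). Gnas, the gene of the stimulatory G protein alpha subunit, stood at 804 and 845 TPM, and the ratio was 511-fold under it. Gm4285 was 314-fold under Tpt1. Gm14964 (2.17 and 1.21 TPM) was 148-fold under the presynaptic adhesion gene Nrxn2 at 241.8 and 270.4 TPM. AI115009 (1.38 and 1.46 TPM) was 61.8-fold under the adenylate kinase gene Ak5. Snhg9, a snoRNA host gene, was 59.1-fold under the ribosomal protein gene Rps2, on 6 and 7 reads. Ratios this far down need a high partner, since the threshold holds the antisense gene at 1 TPM or more.

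The arrangement of the pairs had no part in choosing the genes. A partly overlapping pair counted as divergent if the antisense start lay in the overlap, at any distance from the sense start, and otherwise as convergent. A pair without overlap counted as divergent if the antisense start lay upstream within 1000 bases. The starts of divergent pairs lay a median of 581 bases apart, but 7860 bases apart for Gm15941. Of the 168 pairs, 78 were divergent (46.4%), 39 convergent (23.2%), 39 had the antisense gene inside its partner (23.2%), and 12 had the partner inside the antisense gene (7.14%). Among the 2668 paired antisense genes under the threshold, 23.1% were divergent, 14.1% convergent, 58.9% inside the partner and 3.67% around it. The antisense gene started within 1000 bases of the sense start in 55 of the expressed pairs (32.7%) and in 13.6% of the others. In 45 of the 55 the start lay inside the sense gene, and in 10 it lay upstream. These shares are set side by side without a test. The expressed genes also had more annotated exon sequence, with a median of 1777.5 bases against 882, and 20.6% against 6.20% were a single exon block. Their partners passed 1 TPM in both libraries in 86.9% of pairs, against 75.2% for the rest. No read was counted in either library for 1479 of the 2775 antisense genes under the threshold.

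**Figure D3:**
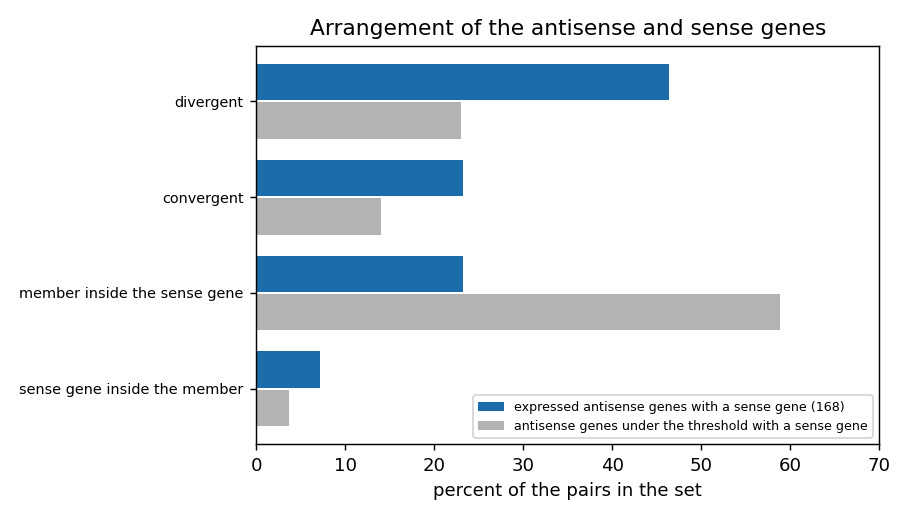
Share of pairs in each arrangement, in percent, for the 168 expressed antisense genes with a sense gene (blue) and for the antisense genes under the threshold with one (grey). Divergent pairs make up 46.4% of the first and 23.1% of the second, and genes inside their partner 23.2% and 58.9%.

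Levels relative to the partner differed between the arrangements. Divergent antisense genes had a median log2 ratio of -3.16, with partners at a median of 21.1 TPM, and 7 of 78 were above them. Genes inside their partner had a median of -2.95, and 3 of 39 were above. Convergent genes had a median of -1.54, with partners at a median of 5.53 TPM, and 13 of 39 were above. Genes enclosing their partner had a median of 1.43, with partners at 0.80 TPM, and 9 of 12 were above. The medians of the antisense levels themselves ran only from 1.835 TPM (inside) to 2.93 TPM (enclosing), while the partner medians ran from 0.80 to 21.1 TPM.

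Symbols that name the partner cover several regulators. Dlx1as, which encloses the interneuron homeobox gene Dlx1, was measured at 6.97 and 6.07 TPM, with Dlx1 at 7.70 and 8.87 TPM. It stood 1.27-fold under its partner. Zfp652os (3.62 and 4.14 TPM), Zbtb11os1 (4.2 and 3.09 TPM) and Zfp335os (2.76 and 2.31 TPM) start inside zinc finger genes and stood 5.40-, 4.13- and 4.24-fold under them. Junos, beside the AP-1 gene Jun, had 2.12 and 2.02 TPM against 30.21 and 32.62 TPM. Runx2os1, inside the bone and skeletal regulator gene Runx2, had 1.36 and 1.54 TPM against 3.69 and 3.75 TPM. Prox2os, opposite the homeobox gene Prox2, had 2.35 and 1.44 TPM and was above its partner at 0.88 and 0.72 TPM. Rab26os, inside the vesicle GTPase gene Rab26, had 9.95 and 7.14 TPM on 44 and 32 reads, and 3.00 and 2.41 TPM in the kallisto-layout tables.

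On a list of 75 developmental transcription factor genes, 27 had an antisense gene in the annotation and 8 had an expressed one, 9 in all. Over the whole annotation, 167 of 2474 sense genes with an antisense gene had an expressed one. The median log2 ratio of the 9 was -2.13, and 1 of them, Dlx6os1, was above its partner, beside 32 of all 168. Beside 2810468N07Rik (Sox8), A830082K12Rik (Nr2f1), Dlx6os1 and Dlx1as, they were Gm2164, Zfhx2os, Gm20687, Prox1os and Emx2os. Gm2164, beside Pou3f1, had 3.81 and 5.87 TPM. Zfhx2os and Gm20687 overlap on the strand opposite the homeobox gene Zfhx2 and had 4.06 and 4.01 TPM, and 3.61 and 2.52 TPM. The assignment of reads to these 2 was uncertain, with a posterior standard deviation of up to 4.80% and 23.2% of their counts. Gm20687 also has exon bases within the span of the coding gene Thtpa on its own strand, which had a mean of 11.2 TPM. The part of reads from Thtpa was not tested. Emx2os starts 263 bases inside Emx2, a homeobox gene needed for hippocampal growth, and had 1.47 and 1.55 TPM, with Emx2 at 9.43 and 12.45 TPM. The list was drawn up by hand, and its counts and median depend on that choice. Outside it, Gm13205 was 17.7-fold above Casz1 and Prox2os 2.17-fold above Prox2. Gm11266 was 32.6-fold under Nfib and Gm13111 1.29-fold under Prdm16. Gm13205, Gm11266 and Gm13111 were named after their values were seen.

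On a list of 132 synaptic, channel and neuronal genes, 50 had an antisense gene in the annotation and 7 had an expressed one, beside the same 167 of 2474. None of these 7 was above its partner, beside 32 of all 168, and the median log2 ratio was -4.05, beside -2.69 over all 168 pairs. Kcnmb4os2 and Gm14964 are given above. Kcnd3os starts inside Kcnd3, the gene of the A-type potassium channel Kv4.3, and had 1.78 and 1.20 TPM against 20.88 and 21.76 TPM. A830092H15Rik, at the postsynaptic adhesion gene Nlgn1, had 3.49 and 2.41 TPM and stood 16.4-fold under it. Gm9885, inside the neurotrophin receptor gene Ntrk3, had 3.01 and 2.87 TPM, 28.5-fold under. Gm35161 at the adenylyl cyclase gene Adcy2 had 2.27 and 1.55 TPM, and Gm42303 inside the receptor phosphatase gene Ptprd had 1.48 and 1.65 TPM. This list was also drawn up by hand, and its median depends on that choice. Among genes outside it, log2 ratios were -0.24 for Gm45441 (Grin2d), -2.69 for Gm28932 (Fgf14) and -2.82 for A730060N03Rik (Cacng2). They were -3.52 for Gm14285 (Adra1d) and -3.87 for Gm20387 (Grm7). Each was less far under than -4.05. These genes were named after their values were seen and are not a full count.

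Reads of a sense gene that were placed on the wrong strand would add to an overlapping antisense gene. This was checked on 24 antisense genes, expressed or not, with at least 50% of their exon bases over exons of the partner and at least 1000 partner reads expected over those bases. The median was 0.265 antisense reads per 100 sense reads, 17 were under 1 per 100, and 7 had no antisense read. The expressed antisense genes with at least 50% of their exon bases over the partner's exons numbered 21. In the gene tables their values ran from 5.40 per 100 for Gm11175 over Jund upwards, with a median of 18.6. Since expression chose these genes, the values describe them and test nothing. In the kallisto-layout tables Gm11175 had 21 and 35 reads against 66 and 86, so its value depends on the table. Overlap on the same strand is a separate matter: 8 of the 170 have exon bases within the span of an expressed gene on their own strand. Introns count in that span, and overlap of exon with exon was not measured. The 8 are Tug1, Tmem147os, Gm49685, Zfhx2os, Gm20687, Gm43079, Gm15941 and Gm44623. For 160 of the 170 the posterior standard deviation of the count was 0 in both libraries, and for 2, Gm43079 and Gm20687, it exceeded 5% of the count.

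Many of the genes had more than 1 annotated transcript. Of the 99 that did, 62 had the same transcript above 50% of the TPM in each library, and for 79 the same transcript led in both. In the second transcript table, in the layout of kallisto, 60 of the 99 had such a transcript. The same transcript led in both libraries and both tables for 54. Tmem147os-201 held 75% and 82.0% of its gene, and 4933431E20Rik-201 held 54.2% and 49.5%. In Tug1 no transcript held as much: the leading transcript held 26.1% in replicate 1, and another one led with 30.3% in replicate 2.

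Counts differed most between the tables for short genes. Of the 170 genes, 159 in the kallisto-layout data reached 1 TPM in both libraries, and Snhg9 and Gm47551 were listed at 0 in both. The median ratio of kallisto-layout to gene-table counts was 1.02. It was 0.722 over the 48 genes with under 1000 exon bases and 1.07 over the rest. Counts were under 50% of those in the gene table for 17 genes, and 16 of these had under 1000 exon bases. TPM in the kallisto-layout tables was higher by a median log2 of 0.69 for the 170 genes and of 0.64 over all genes. Levels in the 2 tables had a Pearson's r of 0.77 and a Spearman's rho of 0.82 across the 170 genes, which are not independent replicates.

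The libraries were then compared gene by gene. Each gene with a mean count of at least 10 entered a two-sided exact binomial test of its rounded counts, scaled by library size. P-values were adjusted by the method of Benjamini and Hochberg over the 18322 genes that entered. This asks only whether 2 libraries differ beyond counting error, and no condition separates them. Of 166 antisense genes tested, 12 passed an adjusted p of 0.05 (7.23%), where 22.6% of all tested genes did. Among all genes with a mean count from 10 to 500, 13% passed, beside 10 of 161 antisense genes. Of the 12, 2 were higher in replicate 2 and 10 in replicate 1, while 11.9% and 10.6% of all genes were called in these directions. With libraries scaled to the spike-ins the split turned to 7 and 3 of 10, of which 5 were among the 12. In that setting 35.6% of all tested genes were called, and the median of all genes moved from -0.003 to 0.11. With edgeR's exact test at a preset coefficient of variation of 0.1 between replicates, the count fell to 1 of 166, Gm15624. Of all 18322 genes 174 (0.95%) were called by that test. The threshold in both libraries also limits how far a gene near 1 TPM can differ.

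**Figure D4:**
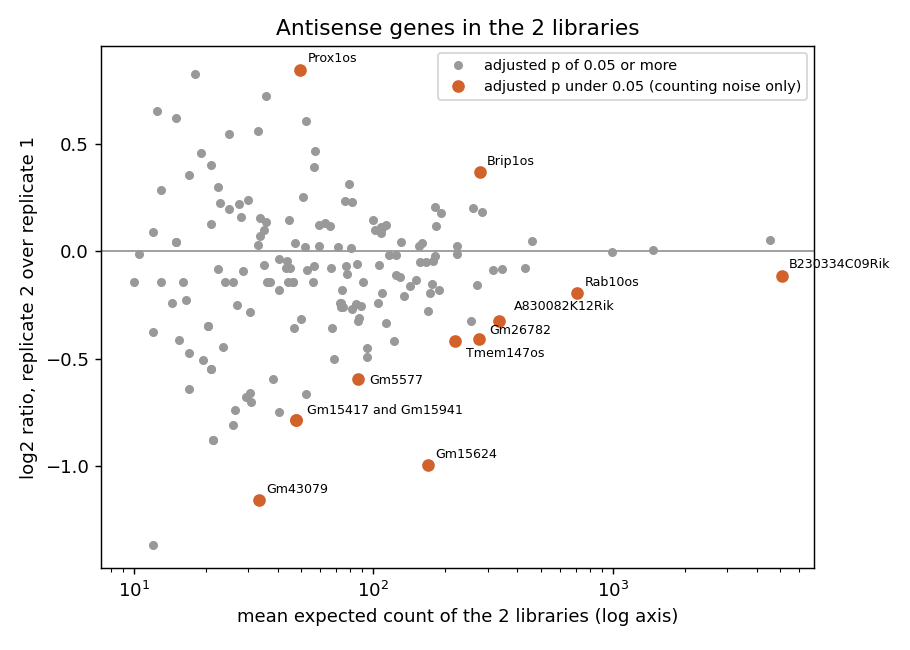
Log2 ratio of replicate 2 to replicate 1 against the mean count (log axis) for the 166 antisense genes tested. Orange points passed an adjusted p of 0.05 and grey points did not, and the spread of the grey points narrows as the count rises.

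The clearest difference was in Gm15624, inside the dynactin gene Dctn1. It had 219 reads in replicate 1 and 121 in replicate 2 (6.29 and 4.31 TPM), a log2 ratio of -0.997 with an adjusted p of 1.17e-08 in the exact binomial test. Dctn1 ran the other way by a small step, with 10156 and 11987 reads and a log2 ratio of 0.10. Gm5577, opposite the endosomal GTPase gene Rab7, had 100 and 73 reads (log2 ratio -0.60), and Rab7 a ratio of 0.10. Tmem147os, Gm26782 and A830082K12Rik were lower in replicate 2 by log2 ratios of -0.42, -0.41 and -0.32, without a call for Tmem147, Tep1 or Nr2f1. Rab10os (-0.20) and B230334C09Rik (-0.11) also passed, on mean counts of 711 and 5086. Gm15417 and Gm15941 had the same counts, 58 and 37 reads, and Gm43079 had 45.0 and 21.5 expected reads with an uncertain assignment.

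Prox1os and Brip1os were the 2 that were higher in replicate 2. Prox1os starts 418 bases inside Prox1, the homeobox gene that specifies dentate granule neurons. It had 33 and 66 reads (2.24 and 4.21 TPM), a log2 ratio of 0.85 with an adjusted p of 0.0251 in the exact binomial test. Prox1 had 5916 and 8818 reads, a log2 ratio of 0.43. The 3 dentate granule neuron markers, Prox1 among them, were all called higher in replicate 2, with a sum of 76.0 and 107.8 TPM. Markers of myelinating oligodendrocytes summed to 1638 and 874 TPM, with 7 of 7 called lower in replicate 2, and those of thalamus to 45.2 and 24.8 TPM, with 3 of 4 called lower. Other lists moved too. CA1 markers (159 and 192 TPM, 3 of 3) and astrocyte markers (507 and 592 TPM, 3 of 4) were called higher in replicate 2. Choroid plexus markers (88.4 and 46.6 TPM, 3 of 4) and red blood cell markers (506 and 379 TPM, 3 of 3) were called lower. The part of tissue makeup in the difference of Prox1os was not tested, and in bulk RNA fewer cells of a type and less RNA per cell cannot be told apart. Brip1os, starting 177 bases upstream of the DNA helicase gene Brip1, had 230 and 328 reads (log2 ratio 0.37). Brip1 itself had 13 and 18 reads in the gene tables, but 106 and 81.8 in the kallisto-layout tables.

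The ratios of partners were set side by side. Both genes were testable in 151 pairs, and across them the log2 ratio of the antisense gene and that of the sense gene had a Pearson's r of 0.09 and a Spearman's rho of 0.05, with all points from the same 2 libraries. Over the 85 pairs with a mean antisense count of at least 50 these were 0.11 and 0.11. The sense gene was tested for 10 of the 12 called antisense genes and called for 4. The direction matched in 2 of these 4, Prox1os with Prox1 and Gm15417 with Zbtb7b (345 and 226 reads, log2 ratio -0.75), a zinc finger gene of T cell fate. It was opposite in Gm15624 with Dctn1 and in Gm5577 with Rab7.

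**Figure D5:**
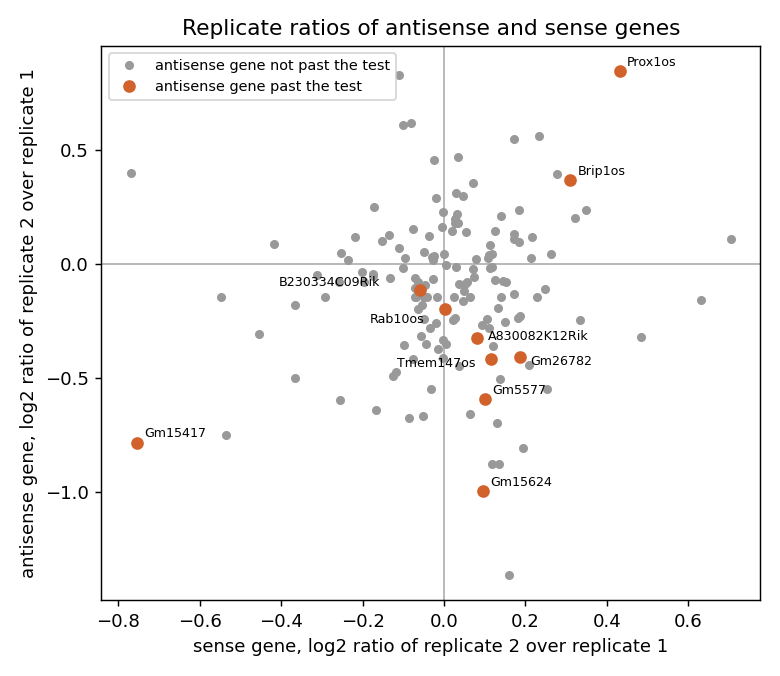
Log2 ratio of replicate 2 to replicate 1 for each antisense gene (vertical) and its sense gene (horizontal), for 151 pairs with both tested. Orange points are antisense genes past the test, and Pearson's r over the cloud is 0.09.

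Values near the threshold show how the set was bounded. Just inside were 1110046J04Rik (1.28 and 1.00 TPM), Gm42984 (1.23 and 1.00 TPM) and Gm10353 (1.00 and 1.29 TPM). Just outside were Gm11837 (0.99 and 2.24 TPM), Gm16168 (2.34 and 0.99 TPM) and Gm20633 (1.12 and 0.99 TPM). With these 3, 51 antisense genes reached 1 TPM in a single library. Gm10353 rested on 11 and 15 reads.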

How the data were processed

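Total RNA from 2 libraries of 1 group was measured. Gene expected counts (estimated reads per gene, not normalised), TPM and a score of how uncertainly reads were assigned (a posterior standard deviation) were deposited by the authors. Transcript tables deposited by the authors, in the layouts of RSEM and kallisto per the file headers, give estimated counts, TPM and each transcript's percent of its gene. The build is mm10 with GENCODE M21, per the labels and the deposited notes. Of the aligner and its settings, nothing is given in the sources used here. Depth was 29144892 and 31755578 gene counts.

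The genes, lists and tests were chosen with earlier results of these data known. Expected counts were rounded, scaled by TMM (edgeR 4.0.16) and tested with an exact binomial test. On simulated counts of 18321 genes for this comparison, 191 of 200 genes with a mean count of at least 50 that were changed 2-fold were called, and 0.0386% of the others. These counts were drawn at equal depth with counting error only (Poisson), as the test assumes. The simulation therefore cannot show how the test behaves with spread between samples. The log2 ratio had a prior count of 0.5. Ratios to the sense gene used log2(TPM + 0.1). Named were the 15 highest, those whose symbol names the partner, the 10 highest and 5 lowest ratios, called genes with a mean count of at least 50 (up to 10 a direction), the lists and 3 genes on each side of the threshold. Other called genes were named after their values were seen. P-values cover counting error only, with no estimate of the spread between samples. Alternatives changed the scaling, filter, table, pseudocount and threshold, and each library was left out.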

Additional observations from a re-analysis of the deposited data

How the results depend on the processing

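No paired analysis was possible because the series has 1 group. The number of expressed antisense genes was 303 at a TPM of at least 0.5, 94 at 2 and 352 in the kallisto-layout tables. With a single library it ran from 183 to 208. The median antisense-to-sense log2 ratio was -2.31 with a pseudocount of 1, and from -2.71 to -2.56 under the other 6 alternatives, 1 of them (a mean count of at least 10 and no expressed gene on the same strand) added after seeing the data. Leaving out 1 library gave -2.70 and -2.56. Between 32 and 36 genes were above the partner in all 4 alternatives. The number called different between the libraries was 1 with edgeR's exact test at a preset coefficient of variation of 0.1, the remaining call being Gm15624, and 7 with kallisto-layout counts, 6 of them among the 12. It was 8 to 11 under the other 5 alternatives, but with spike-in scaling only 5 of the 10 called were among the 12. At an unadjusted p under 0.05 there were 24. Few reads limit the lower genes: 4 had a mean count under 10. The cause of these differences was not tested.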
